A study of Mus musculus with 3 samples.

Results

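The transcripts examined here mark mast cells: the proteases Cma1, Mcpt4, Cpa3 and Tpsb2, the receptors Kit, Ms4a2 and Fcer1a, the histamine-forming enzyme Hdc and the transcription factor Gata2. They were chosen by name, as every probe that is no control and carries one of these symbols in the array annotation, or whose accession belongs to it in RefSeq. All 9 genes were on the array, with 12 of its 41174 probes, which represent 27597 gene names in all. Tpsb2 stands under its older name Mcpt6 in the array annotation. At least 1 probe of 8 of the 9 genes was well above background, as were 14562 genes over the whole series.

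The cells were washed out of the peritoneum of male Swiss albino mice aged 8 weeks, and the samples are labelled as macrophages. There was 1 one-colour Agilent array for each of 3 groups, and 10 mice were assigned to a group. Every mouse received 125 µg of lipopolysaccharide by intraperitoneal injection at day 0. The control group then had, at day 4, 100 ng of the phorbol ester TPA, a protein kinase C activator, and the other groups had TPA plus K2Cr2O7, a salt of hexavalent chromium, at 35 or 70 nmol, which the labels count as chromium(VI). Lavage followed 4 days later. The labels leave unsaid whether each RNA was from a single mouse or pooled, and they describe no sort for a cell type. With a single array for each group no difference has a replicate check, no test was possible, and precision is limited by how few arrays there are.

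Mast cells are resident cells of tissues and of the mouse peritoneal cavity that store histamine, heparin and proteases in granules. They release these when an antigen cross-links immunoglobulin E bound to the high-affinity receptor FceRI, and their survival depends on Kit, the receptor of stem cell factor. Mast cells of the peritoneal cavity are of the connective tissue type, which stores the chymase Mcpt4, the elastase-like chymase Cma1, the tryptase Tpsb2 and the carboxypeptidase Cpa3, whereas Mcpt1 and Mcpt2 belong to mast cells of mucosal surfaces. Gata2 is a zinc finger factor that mast cells need and that binds GATA motifs in mast cell genes.

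The stretches before and at the start of 3 protease genes and of Fcer1a are shown as examples of windows that hold a GATA match. Each runs 5′ to 3′ along the gene from 250 bases before to 50 bases after its annotated start, from RefSeq on build GRCm38.p6, and all 4 genes lie on the minus strand. Capitals mark the matches to a GATA hexamer, defined as AGATAA or else AGATAG, and likewise TGATAA or else TGATAG, on either strand. The windows are chr14:55944626-55944925 for Cma1, chr14:56062261-56062560 for Mcpt4, chr3:20242132-20242431 for Cpa3 and chr1:173227180-173227479 for Fcer1a.
Cma1: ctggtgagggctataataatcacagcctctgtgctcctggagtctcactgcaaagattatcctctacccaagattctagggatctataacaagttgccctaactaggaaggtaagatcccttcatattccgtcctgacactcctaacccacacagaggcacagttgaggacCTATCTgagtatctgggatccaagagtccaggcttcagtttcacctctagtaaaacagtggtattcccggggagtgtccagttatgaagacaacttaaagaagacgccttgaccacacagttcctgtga
Mcpt4: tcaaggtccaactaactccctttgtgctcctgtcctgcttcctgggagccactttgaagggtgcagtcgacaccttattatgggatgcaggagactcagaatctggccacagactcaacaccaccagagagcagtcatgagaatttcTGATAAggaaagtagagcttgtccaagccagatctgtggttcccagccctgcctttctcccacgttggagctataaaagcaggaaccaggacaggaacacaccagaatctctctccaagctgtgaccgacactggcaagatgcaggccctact
Cpa3: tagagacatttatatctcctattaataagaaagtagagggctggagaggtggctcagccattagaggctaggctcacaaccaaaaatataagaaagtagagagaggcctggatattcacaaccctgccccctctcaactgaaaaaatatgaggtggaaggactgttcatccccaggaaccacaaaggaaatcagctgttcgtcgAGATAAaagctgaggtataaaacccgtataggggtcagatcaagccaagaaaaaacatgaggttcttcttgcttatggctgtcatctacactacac
Fcer1a: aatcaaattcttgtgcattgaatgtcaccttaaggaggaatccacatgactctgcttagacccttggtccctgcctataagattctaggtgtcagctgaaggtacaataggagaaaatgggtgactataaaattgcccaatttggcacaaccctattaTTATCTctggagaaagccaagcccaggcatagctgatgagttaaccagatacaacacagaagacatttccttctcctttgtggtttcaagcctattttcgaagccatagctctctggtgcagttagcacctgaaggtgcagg

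Promoter windows were at hand for 8 of the 9 genes, and 6 of the 8 held a GATA hexamer. Counted by window, 6 of their 10 windows held one. Of all 32851 windows of the same length, 29.8% held one. The match begins 79 bases upstream of the start in Cma1, 103 in Mcpt4, 46 in Cpa3 and 92 in Fcer1a. Hdc held 1 match and Ms4a2, the beta chain of FceRI, held 3. Kit and Gata2 have 2 windows each, which for Kit overlap nearly in full, and none of these held one. Both genes were lower at 70 nmol than with TPA alone as well. An E-box of the kind bound by Mitf, another factor of mast cells, was searched as CACATG, its reverse complement CATGTG, or the palindrome CACGTG, with no overlap between it and the GATA hexamers. It was found in 1 of the 8 genes, Fcer1a, and in 20.4% of all windows. A match describes the letters of the window and shows no binding. A part of Gata2 in the lower levels of the other genes was not tested.

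Across the arrays, 49.1% of probes were well above background in the TPA only sample, 45.9% at 35 nmol and 45.1% at 70 nmol. The 3 arrays shared 1 slide and 1 scan, and group and slide position cannot be told apart. All 9 general macrophage markers looked for, among them Adgre1, Csf1r and Lyz2, were well above background on all 3 arrays. The summed signal of the 8 that were not saturated (all but Lyz2) was 454, 457 and 401 times the 75th percentile spot in the TPA only, 35 nmol and 70 nmol samples. Such sums weigh bright probes most, since probes differ in brightness. Adgre1, the brightest of the 8, differed by -0.51 on the log2 scale at 70 nmol against TPA only. Yet only 3 of the 8 were lower there, and their median log2 difference was 0.12 (-0.03 at 35 nmol). Levels below are the log2 processed signal minus the 75th percentile of the spots on the same array, so a spot at that percentile has level 0. The lowest probe well above background had level -3.65 in the TPA only sample, -3.40 at 35 nmol and -3.26 at 70 nmol. Levels of different probes are not comparable with each other, since probes differ in how strongly they bind.

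The granule proteases were lower at both doses than with TPA alone, and lowest at 70 nmol. Cma1 cleaves proteins after aromatic residues in humans and after small aliphatic ones in the mouse. Its brighter probe, A_51_P514035 at chr14:54895688-54895747 on build mm8, had level 4.05 in the TPA only sample, 3.09 at 35 nmol and 2.31 at 70 nmol. The other Cma1 probe, A_51_P514029, which the design places over 1060 bases at chr14:54896725-54897784, had levels 1.00, 0.018 and -0.45 in the same order. Both Cma1 probes were lower at each step, and their differences were 0.28 apart at 70 nmol and 0.027 apart at 35 nmol, both against TPA only.

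Mcpt4, the chymase that is the functional counterpart of the human enzyme, had level 2.16 in the TPA only sample, 1.58 at 35 nmol and 0.46 at 70 nmol on its brighter probe, A_51_P145132 (chr14:55013823-55013882). Its other probe, A_51_P145130 (chr14:55013815-55013846), had levels 0.73, -0.0051 and -0.99. The 2 positions overlap, so these probes share part of their target. Their differences at 70 nmol against TPA only, -1.70 and -1.72, were 0.021 apart. Cpa3, which removes single residues from the ends of peptides and degrades several venoms, had level 1.20 in the TPA only sample, 0.39 at 35 nmol and -0.52 at 70 nmol (chr3:20407825-20407884).

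Tpsb2, the tryptase that is stored as a heparin-bound tetramer, had level -1.15 in the TPA only sample, -2.26 at 35 nmol and -2.57 at 70 nmol (chr17:25095113-25095172). At 70 nmol this is 0.68 above the lowest probe well above background. All 4 proteases thus had the same order over the 3 arrays, highest with TPA alone and lowest at 70 nmol. In these lavage samples, fewer mast cells and less of these RNAs per mast cell cannot be told apart.

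Fcer1a, the chain of FceRI that binds immunoglobulin E, had level -1.65 in the TPA only sample, -2.73 at 35 nmol and -2.92 at 70 nmol (chr1:175059409-175059468). At 70 nmol it was 0.33 above the lowest probe well above background. Ms4a2, the beta chain that amplifies the signal of that receptor, was not well above background on any array (chr19:11684333-11684392, levels -5.73, -5.41 and -5.44), so it has no fold. The third chain, encoded by Fcer1g, is shared with other Fc receptors that macrophages carry. Its 2 probes differed by 0.12 and 0.22 at 70 nmol and by -0.07 and 0.022 at 35 nmol against TPA only, all near or within the scanner error.

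Kit was printed on the array 10 times, which shows how far repeat measurement varied within a sample. After 3 outlier spots in the TPA only sample and 1 at 35 nmol were left out, the Kit spots had a lowest, median and highest level of -1.63, -1.57 and -1.37 in the TPA only sample, -2.00, -1.91 and -1.77 at 35 nmol and -2.43, -2.30 and -2.06 at 70 nmol. The ranges of the kept spots did not overlap between the arrays. The mean level was -1.55 ± 0.08 (SD of 7 spots), -1.89 ± 0.09 (9 spots) and -2.28 ± 0.11 (10 spots) in that order. These are spots of 1 labelled RNA each and not replicates of a group. With the outlier spots kept, the medians were -1.58, -1.86 and -2.30, though the ranges then overlapped between TPA only (-1.77 to -1.15) and 35 nmol (-2.00 to -0.29). The Kit probe lies at chr5:75937959-75938018 on mm8.

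**Figure D1:**
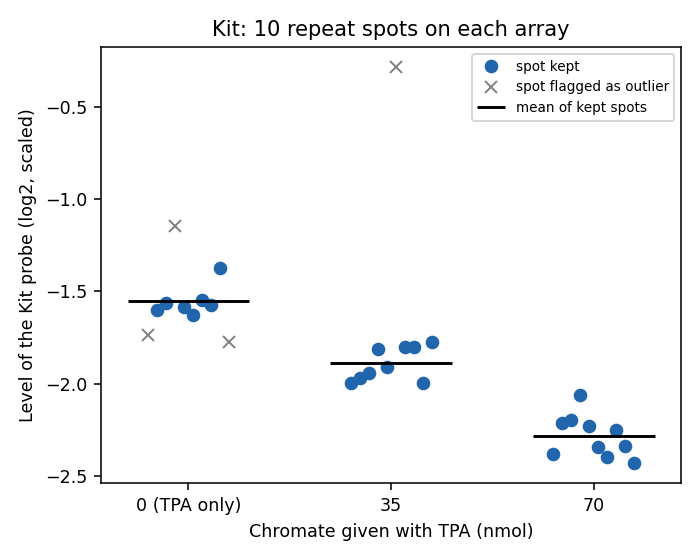
Level of the Kit probe (log2 signal minus the 75th percentile of the array) on each of 10 repeat spots, for TPA only, 35 nmol and 70 nmol, with kept spots as points, outlier spots as crosses and the mean of the kept spots as a bar. The kept spots form separate bands with means of -1.55, -1.89 and -2.28.

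Hdc, which makes histamine from histidine and is also active in basophils and other myeloid cells, was one of the members far above background on all 3 arrays. It had level 3.41 in the TPA only sample, 3.25 at 35 nmol and 2.62 at 70 nmol (chr2:126285221-126285280). The step between TPA only and 35 nmol was smaller than the scanner error of 0.20. Gata2 had level -1.32, -2.02 and -2.73 on its brighter probe (A_51_P516625, chr6:88172482-88172541). The other Gata2 probe (A_52_P233441, chr6:88172009-88172068) had levels -2.05 and -2.66 in the TPA only and 35 nmol samples and was not well above background at 70 nmol. That probe was at least 2.30-fold lower at 70 nmol than with TPA alone. Here, and wherever a bound is given, the bound is taken against the lowest signal well above background on the dimmer array, or against the dim probe's own signal where that is higher.

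**Figure D2:**
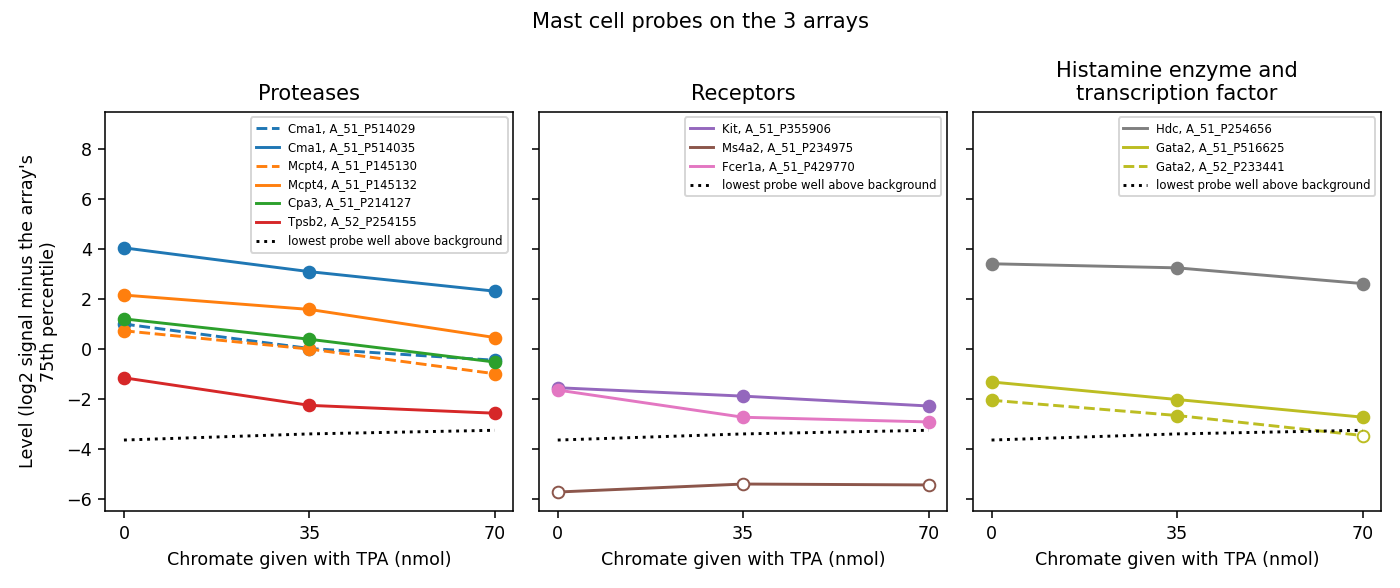
Level (log2 signal minus the 75th percentile of the array) of each of the 12 probes at 0 (TPA only), 35 and 70 nmol of chromate, with solid lines for the probe used for the gene, dashed lines for a second probe, open points where a probe was not well above background, and a dotted line for the lowest probe well above background. The 11 probes other than Ms4a2 have their highest level with TPA alone and their lowest at 70 nmol.

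The first comparison sets 70 nmol of chromate with TPA against TPA alone. Of the 8 genes measured, that is well above background on both arrays, 6 were at least 2-fold lower and none was higher. Of all 12541 measured genes, 1.08% were at least 2-fold lower and 1.63% at least 2-fold higher, so the share among the 8 is far above this background. The genes were chosen with such results known, and this share is a description. Their median difference was -1.41 on the log2 scale, where the median of all measured genes was 0.04.

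The proteases Cma1, Cpa3 and Mcpt4 were 3.33-fold, 3.31-fold and 3.25-fold lower at 70 nmol than with TPA alone, with log2 differences of -1.74 ± 0.20, -1.73 ± 0.21 and -1.70 ± 0.21 (± the scanner software's error of the difference). These 3 values could not be told apart within that error. Tpsb2 was 2.67-fold lower (-1.42 ± 0.28), Gata2 2.66-fold (-1.41 ± 0.30) and Fcer1a 2.42-fold (-1.28 ± 0.32). Hdc was 1.73-fold lower (-0.79 ± 0.20) and Kit 1.66-fold lower (-0.73 ± 0.26), and neither reached 2-fold. In the order of the differences, the only neighbours further apart than their combined error were Fcer1a and Hdc. The difference of the dim genes depended on how background was removed. With normexp background correction (offset 50), Tpsb2, Gata2 and Fcer1a differed by -0.69, -0.50 and -0.41 and no longer reached 2-fold. Cma1, Cpa3 and Mcpt4 differed by -1.73, -1.46 and -1.54 and still reached it, though Cpa3 moved by more than its error. With the same correction and no offset, Gata2 (-0.93) and Fcer1a (-0.87) again missed 2-fold, and Tpsb2 (-1.19) passed it.

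**Figure D3:**
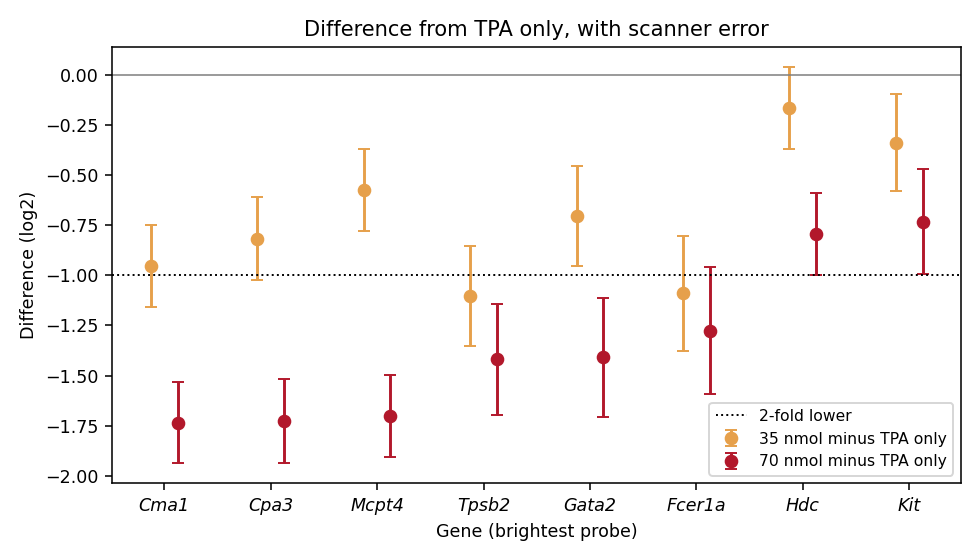
Log2 difference from TPA only of the brightest probe of each of the 8 measured genes, at 35 nmol and 70 nmol, with the scanner software's error as bars, and the dotted line at 2-fold lower. At 70 nmol 6 genes lie below that line and at 35 nmol 2 do, Tpsb2 and Fcer1a.

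The second comparison sets 35 nmol with TPA against TPA alone. There, 2 of the 8 measured genes were at least 2-fold lower, against 0.299% of all 12730 measured genes. None was 2-fold higher, against 1.12%, and the other 6 lay below 0 as well. The median difference of the 8 was -0.76, and that of all genes 0.04. Tpsb2 was 2.15-fold lower (-1.10 ± 0.25) and Fcer1a 2.13-fold lower (-1.09 ± 0.29). Cma1 was 1.94-fold lower (-0.95 ± 0.20), close to the threshold, Cpa3 1.76-fold (-0.82 ± 0.21), Gata2 1.63-fold (-0.70 ± 0.25) and Mcpt4 1.49-fold (-0.57 ± 0.20). Hdc differed by -0.16 ± 0.20, which is within its error. Kit differed by -0.34 ± 0.24, but by -0.18 in the deposited value table and by -0.089 with normexp correction at offset 50, both within that error. No neighbours in this order were further apart than their combined error. Both calls at 2-fold were lost with normexp correction. Tpsb2 and Fcer1a differed by -0.51 and -0.40 at offset 50, where Cma1 (-1.01) passed 2-fold instead, and both by -0.89 without an offset. Both comparisons share the TPA only array, so their like signs are not separate observations.

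The third comparison sets 70 nmol against 35 nmol. It shares an array with each of the other comparisons and is the difference between them, so it is not independent of either. All 8 genes were lower at 70 nmol, and 1 of them, Mcpt4, was at least 2-fold lower, against 0.718% of 12387 measured genes. None was 2-fold higher, against 0.92%. The median of the 8 was -0.67 and that of all genes 0.0016. Mcpt4 was 2.18-fold lower at 70 than at 35 nmol (-1.13 ± 0.21), Cpa3 1.88-fold (-0.91 ± 0.21), Cma1 1.72-fold (-0.78 ± 0.20) and Hdc 1.55-fold (-0.63 ± 0.20). With normexp correction at offset 50 the Mcpt4 difference was -0.95 and no gene reached 2-fold. The second Mcpt4 probe gave -0.99 and the second Cma1 probe -0.47. Gata2 differed by -0.71 ± 0.32 and Kit by -0.39 ± 0.28. Tpsb2 (-0.31 ± 0.30) and Fcer1a (-0.19 ± 0.36) differed by no more than about their error. Fcer1a differed by 0.019 with normexp correction without an offset, so its direction between the doses is not settled.

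In the log2 difference between 70 nmol and TPA alone, the part already present at 35 nmol was 85.3% for Fcer1a and 77.8% for Tpsb2, but 33.8% for Mcpt4 and 20.7% for Hdc. Cma1, Gata2, Cpa3 and Kit lay between, at 54.9%, 49.9%, 47.2% and 46.0%. The shares depended on the processing. Over the alternatives they ranged between 83.6% and 102.2% for Fcer1a, 74.1% and 85.8% for Tpsb2, 32.7% and 48.4% for Mcpt4, 18.4% and 50.8% for Hdc, and 24.3% and 69.5% for Kit. At 70 nmol Fcer1a and Tpsb2 lay only 0.33 and 0.68 above the lowest probe well above background, where a further step is poorly measured. Mcpt4 and Hdc lay 3.71 and 5.87 above it. Whether the shares differ between genes could not be tested with 1 array per group.

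**Figure D4:**
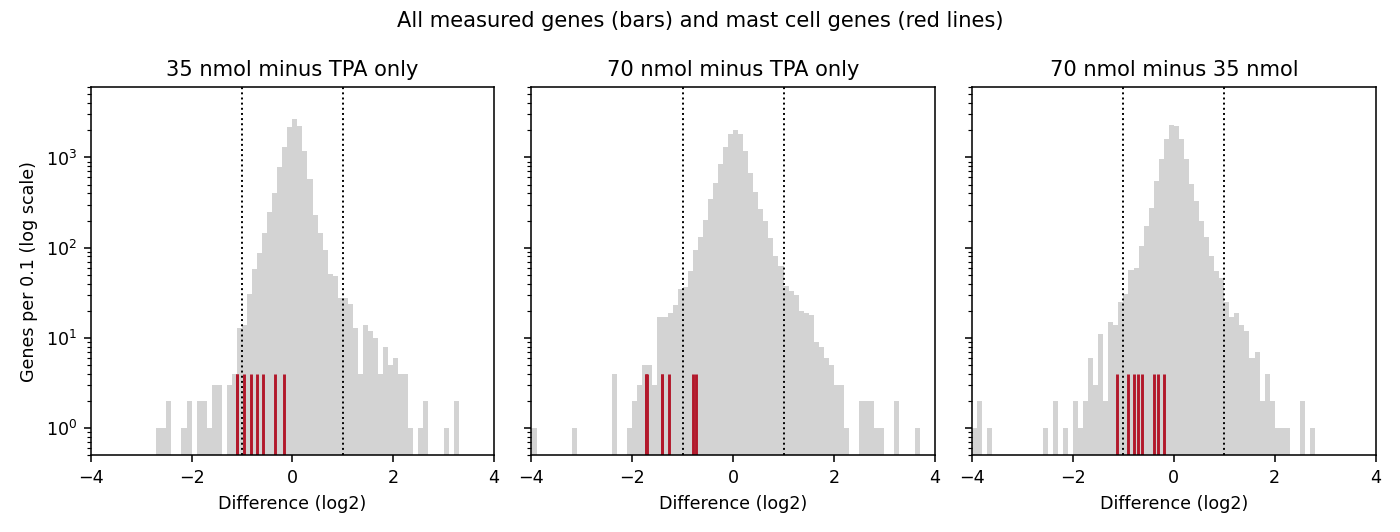
Number of genes (log scale) by log2 difference in bins of 0.1 for 35 nmol against TPA only, 70 nmol against TPA only and 70 nmol against 35 nmol, with all measured genes as grey bars, the 8 mast cell genes as red lines and 2-fold as dotted lines. Values beyond the axis are drawn in the end bins, and all 8 lines lie below 0 in each of the panels.

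Other genes of mast cells were examined in 7 lists of 80 genes, of which 62 were detected on an array. At 70 nmol against TPA only, 1 of their 55 measured genes was at least 2-fold lower and 2 were 2-fold or more higher, the median being 0.12. In all genes the shares were 1.08% and 1.63%, so these counts are near that background. At 35 nmol none of 57 was 2-fold lower and 3 were higher, with a median of 0.08, where the shares in all genes were 0.299% and 1.12%. The 3 higher genes, Ctsg, Siglecf and Il4, are a larger share than in all genes. Many genes of the 7 lists are also active in macrophages and other leukocytes. The counts for each list below stand against the same shares of all genes, and none at 2-fold in so short a list is near them.

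Among 8 further proteases, Tpsg1, the tryptase anchored in the mast cell membrane, was lower at both doses. It had level -1.26 in the TPA only sample, -2.02 at 35 nmol and -2.62 at 70 nmol, which is a difference of -0.76 at 35 nmol and -1.36 at 70 nmol against TPA only. Mcpt1, Mcpt2, Mcpt9 and Tpsab1 were not well above background on any array, and Cma2 was not found among the probes. Cathepsin G, Ctsg, which neutrophils and monocyte precursors also store, was 1.24 higher at 35 nmol and 1.55 higher at 70 nmol. Granzyme B, Gzmb, which cytotoxic lymphocytes also store, differed by -0.08 and -0.10.

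Of 14 genes of the granule matrix and of mediator synthesis, none of the 11 measured at 70 nmol and none of the 12 measured at 35 nmol differed 2-fold from TPA only. Slc18a2, the transporter that loads histamine into granules, was lower at both doses, though not measured at 70 nmol. Its brighter probe had level -2.26 in the TPA only sample and -3.22 at 35 nmol, a difference of -0.96. At 70 nmol that probe was not well above background and at least 1.997-fold lower than with TPA alone. Its second probe was at least 1.58-fold lower at 35 nmol and at least 1.43-fold lower at 70 nmol. Tph1, which begins serotonin synthesis, differed by -0.73 at 35 nmol and by 0.05 at 70 nmol. Rab27a, a regulator of granule release, differed by -0.34 and -0.58, and Cd63, a membrane protein of granules and lysosomes, by 0.63 and 0.62. Serglycin, Srgn, the core protein that carries heparin, differed by 0.08 and 0.16.

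Of 14 measured genes of FceRI signalling, none differed 2-fold from TPA only at either dose, and the median was 0.03 at 35 nmol and 0.12 at 70 nmol. The differences largest in size in that list were those of the calcium channel Orai1, at 0.23 and 0.61, and of the adaptors Lat, at 0.16 and 0.34, and Lat2, at -0.13 and 0.27. Of 9 measured genes of the Kit pathway, none differed 2-fold at either dose, with Socs1, a feedback inhibitor of cytokine receptors, at 0.85 and 0.74, the exchange factor Sos1 at 0.33 and 0.26, and the death-promoting Bcl2l11 at 0.25 and 0.45. The ligand of Kit, Kitl, was not well above background on any array.

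Of the transcription factors, Mitf differed by 0.04 at 35 nmol and 0.31 at 70 nmol against TPA only, Lmo2 by -0.15 and -0.35 and Cebpa by 0.19 and 0.53. None of the 10 measured at each dose reached 2-fold. Among surface receptors, the interleukin 33 receptor Il1rl1 differed by 0.60 and -0.21, and the stem cell and mast cell sialomucin Cd34 by -0.01 and 1.33. Siglecf, which marks eosinophils, differed by 1.44 ± 0.28 (scanner error) and 0.36 ± 0.33. Mrgprb1 and Mrgprb2, receptors of mast cells for basic peptides and drugs, were not well above background on any array. Il4, a cytokine of basophils, mast cells and T cells, had level -2.71 in the TPA only sample, -1.14 at 35 nmol and -2.25 at 70 nmol, so it was highest at 35 nmol. In the TPA only sample Il4 and Siglecf (level -2.96) lay near the lowest probe well above background, at -3.65.

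Basophils share Fcer1a, Ms4a2, Hdc and Gata2 with mast cells. Of 5 basophil markers, Mcpt8 and Itga2 were not well above background on any array. Prss34, a protease of basophils and of some mast cells, had level -1.47, -1.90 and -3.10 in the TPA only, 35 nmol and 70 nmol samples. Against TPA only it differed by -1.62 ± 0.36 (scanner error) at 70 nmol and by -0.43 ± 0.25 at 35 nmol. At 70 nmol Prss34 was only 0.16 above the lowest probe well above background, so the size of that difference is poorly measured. Cd200r3, a receptor of basophils and mast cells, had level -1.85 in the TPA only sample and -2.55 at 35 nmol on its brighter probe. At 70 nmol that probe was not well above background and at least 2.64-fold lower than with TPA alone. The other Cd200r3 probe was not well above background on any array. The fifth marker is Il4, given above. The summed signal of the basophil markers well above background was 0.789, 0.891 and 0.327 over 3, 3 and 2 markers in the same order, and without Il4 it was 0.637, 0.438 and 0.117. Their part in the lower Fcer1a, Hdc and Gata2 was not tested.

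Markers of other cells moved beside the mast cell genes. Of 8 measured markers of large peritoneal macrophages, 5 were at least 2-fold lower at 70 nmol and none at 35 nmol against TPA only, with medians of -1.10 and -0.25, against 1.08% and 0.299% of all genes. All 9 were well above background on every array, and Icam2 was saturated. The summed signal of the other 8 was 335 in the TPA only sample, 294 at 35 nmol and 160.1 at 70 nmol. All 4 measured fibroblast markers were at least 2-fold higher at 70 nmol, against 1.63% of all genes, with a summed signal of 9.52, 10.8 and 32.7 over the 4, 4 and 6 of 6 markers well above background in the same order. The eosinophil markers Epx and Prg2 were not well above background on any array, and the summed signal of the others was 2.18, 2.95 and 2.20. Of the hepatocyte markers, 6 were well above background in the TPA only sample and at 35 nmol, where all 6 were at least 2-fold higher. At 70 nmol Alb differed by -6.09 from TPA only, and the other 5 were not well above background and at least 2.84-fold to 47.7-fold lower. Their summed signal was 20.1, 59.4 and 0.134 in order of dose. The 4 erythroid markers measured were all at least 2-fold lower at 35 nmol and 2 of them at 70 nmol, with summed signals of 67.0, 11.6 and 35.3. The part of these cells in the lower mast cell genes was not tested.

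The genes nearest to the mast cell genes were sought over the 3 arrays. Likeness was the distance between a gene's pair of differences (35 and 70 nmol against TPA only) and the median pair of the 8 mast cell genes, -0.76 and -1.41, over 12326 genes measured on all 3 arrays. The 5 nearest were the chemokine scavenger receptor Ackr3 (-0.77 and -1.43), Tpsg1 (-0.76 and -1.36), Rph3a (-0.81 and -1.46), Metap1d (-0.70 and -1.36) and Sobp (-0.69 and -1.49). With 3 arrays, a pair of differences is little to go by, and many genes may have a like pair.

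**Figure D5:**
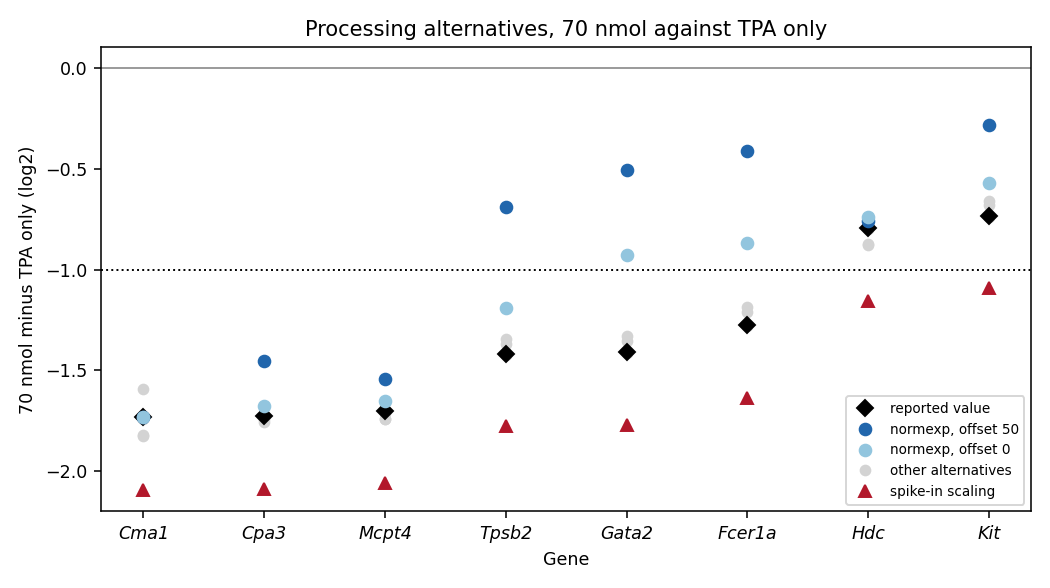
Log2 difference between 70 nmol and TPA only for each of the 8 genes as reported (black diamonds) and under each processing alternative, with normexp correction and spike-in scaling in colour. Cma1, Cpa3 and Mcpt4 lie below the dotted 2-fold line throughout, whereas Tpsb2, Gata2 and Fcer1a lie above it with normexp correction at an offset of 50, and Gata2 and Fcer1a also at an offset of 0.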

How the data were processed

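RNA of lavage cells was labelled with Cy3 and hybridised to 1 array per group. Per the file headers, the authors extracted the deposited spot intensities with Agilent Feature Extraction 10.5.1.1, whose processed signal is background-subtracted and detrended, with spots flagged as well above background at a multiple of 13. Probe positions are on mm8. The deposited value table holds log2 values; subtracting it from the log2 processed signal left a fixed offset per array (8.00 for TPA only, 7.61 for 35 nmol, 7.67 for 70 nmol), to within 0.01 in 99.8%, 99.8% and 99.9% of probes above background, so scale and direction are known and genes were not centred. Its column medians were -3.60, -3.74 and -3.78.

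Here the log2 processed signal was scaled on the 75th percentile of the 43379 spots that are no controls on each array (8.07, 7.69 and 7.74). Outlier spots were left out and spots of a probe averaged. Probes were named through their accession in RefSeq (24375 of 41174), else by symbol or unique synonym, and for 8072 the array's own name was used. The brightest probe stood for a gene. A gene was measured when well above background on both arrays and not saturated. The median error of a difference was 0.20 by the scanner software, and repeat spots had a median SD of 0.04, 0.04 and 0.03. Errors are technical and leave out the spread between animals. The threshold was 2-fold.

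The genes and lists were chosen with earlier results of these data known. The text names every probe of the 9 genes, the detected further proteases, up to 3 genes of each other mast cell list by size of difference, and the 5 nearest genes. Other genes of these lists, among them Slc18a2, Srgn, Fcer1g, Kitl, Mrgprb1, Mrgprb2 and Cd200r3, were named after their values were seen, and not every gene the rule selects from the marker lists is given. The remaining lists (progenitor, mesothelium, B cell, T and NK cell, neutrophil, erythroid and hepatocyte) had medians of 0.64, 0.83, -0.34, 0.04, 0.46, -1.07 and -6.09 at 70 nmol against TPA only and 0.01, 0.09, -0.11, -0.05, -1.24, -2.47 and 1.56 at 35 nmol; only 1 hepatocyte marker was measured at 70 nmol because the others were no longer well above background. Alternatives were normexp correction, quantile and cyclic loess normalisation, scaling on detected probes or on spike-in probes (4 of 10), a looser and a stricter filter, the mean over probes, the value table and other thresholds. The 2-fold call was also run on simulated data with spot error only, for 70 nmol against TPA only (12541 genes). There, 50 of 50 genes changed 2.5-fold, 0 of 50 changed 1.5-fold and 0 of 12341 unchanged genes passed. Where spot error is small beside the gap between these folds and the threshold, such an outcome is set in advance, so it is no check on the calls. Spread between animals was not simulated, so this gives no rate of false calls in the real data. The software was limma 3.58.1 in R 4.3.3 and, in Python 3.11.15, matplotlib 3.10.9, pandas 2.3.3 and numpy 2.4.6.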

Additional observations from a re-analysis of the deposited data

How the results depend on the processing

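Of the recomputed counts and medians, 47 stayed within 1.5 times (counts) or the median scanner error of about 0.24, 0.22 and 0.24 (medians at 70 and 35 nmol and between doses), and 19 moved. At 70 nmol against TPA only (6 genes, median -1.41), normexp correction with offset 50 gave 3 genes and -0.72, normexp with offset 0, chosen after seeing the data, 4 genes and -1.06, spike-in scaling 8 genes and -1.78, the stricter filter 3 genes and -1.71 over the 4 genes it leaves, and the 3-fold threshold 3 genes. At 35 nmol against TPA only (2 genes, -0.76), offset 50 gave 1 gene (Cma1, not called as reported) and -0.45, offset 0 gave 0 genes, quantile normalisation 3 genes, spike-in scaling 5 genes and -1.18, the stricter filter 0 genes, and thresholds of 1.5-fold and 3-fold 5 and 0 genes. At 70 against 35 nmol (1 gene, -0.67), offset 50 gave 0 genes and -0.38, and thresholds of 1.5-fold and 3-fold 5 and 0 genes. Fcer1a reversed there with offset 0, to 0.019. Apart from it, all 8 genes were lower in all 3 comparisons wherever an alternative measured them. Spike-in scaling moved the median of all genes to -0.32 at 70 nmol and -0.38 at 35 nmol. Relative to it the members' medians were -1.45 and -0.80, the same as with the reported scaling. Over all genes at 70 nmol, 136 were lower and 204 higher as reported, 48 and 80 with offset 50, 404 and 87 with spike-in scaling, 761 and 442 with the looser filter, and 50 and 109 with the stricter one. At 35 nmol the 38 lower and 143 higher became 10 and 55, 255 and 71, 532 and 399, and 13 and 50, and between doses the 89 and 114 became 20 and 39, 75 and 135, 478 and 375, and 23 and 52 under these settings. An offset adds a constant to every signal and so shrinks the differences of dim probes. Signal near background limits Tpsb2, Kit, Fcer1a and Gata2 at 70 nmol. No paired analysis was possible because each group has 1 array.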

Other observations

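Genes that act on histamine were looked for through the word in the probe descriptions, a choice made after the values were seen, which found 5 genes besides Hdc. Hnmt, the enzyme that inactivates histamine inside cells, had level 0.48 in the TPA only sample, 0.01 at 35 nmol and -0.22 at 70 nmol. Its difference from TPA only was -0.70 ± 0.21 (scanner error) at 70 nmol and -0.47 ± 0.21 at 35 nmol, so Hnmt and Hdc were both lower at 70 nmol, neither by 2-fold. The H1 receptor, Hrh1, had level -2.55 in the TPA only sample and -2.89 at 35 nmol, and at 70 nmol was not well above background and at least 1.63-fold lower than with TPA alone. Hrh2 was well above background in the TPA only sample alone (-3.54), close to the lowest such probe, and Hrh3 and Hrh4 on no array.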
